A study of Mus musculus with 8 samples.

Results

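Lens crystallins are the abundant soluble proteins that make the eye lens refractive, and RNA for 10 of them was present in skin libraries of mouse embryos. The 10 genes are Cryaa, an alpha crystallin, Cryba1, Cryba2 and Crybb1, which are beta crystallins, and Cryga, Crygb, Crygc, Crygd, Cryge and Crygf, which are gamma crystallins. They are 10 of the 21882 gene symbols in the deposited tables and make up 11 of the 27641 transcripts, Crygc having 2. They were chosen by measured values, as the largest rises between 2 groups of skin libraries at embryonic day 16.5 (E16.5), so their values in that contrast are a description and were not tested.

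RNA was sequenced from C57BL/6 embryos in 8 libraries. At E16.5, whole skin labelled Cyp26b1-/-, by its label a null for the gene in every cell, was compared with skin of wild-type embryos, 2 libraries each. At the later age, embryonic day 18.5 (E18.5), dermis and epidermis labelled En1cre;Cyp26b1f/- were set against dermis and epidermis of Cyp26b1f/+ controls, with 1 library per group. En1cre deletes the floxed copy only in cells that have expressed Engrailed 1, and by the labels the mutant also has 1 functional copy fewer than the control in all other cells. The E18.5 groups are called mutant and control here. Levels are given in FPKM, the number of sequenced fragments per kilobase of a transcript, scaled for the size of each library. The E16.5 values pool the 2 libraries of a group, so neither value has a spread and a single library cannot be left out. The labels do not say whether the libraries came from separate animals. In RNA from bulk tissue, fewer cells of a type and less RNA per cell cannot be told apart.

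Cyp26b1 breaks down retinoic acid, which acts through nuclear receptors bound to pairs of AGGTCA-like hexamers in DNA. Alpha crystallins are small heat shock proteins that keep other lens proteins in solution. Beta and gamma crystallins are related structural proteins, and the gamma genes, most of them in a single cluster, are known for their expression in lens fibre cells. Skin is not a tissue in which the gamma crystallins are known to be abundant. Cyp26b1 RNA did not check the labels, since its summed level was 58.2 FPKM in skin labelled Cyp26b1-/- and 34.9 FPKM in wild-type skin. Its transcripts went opposite ways there. A first was at 14.4 FPKM in skin labelled Cyp26b1-/- and 19.45 FPKM in wild-type skin, and the other at 43.8 and 15.5 FPKM. The summed level was 102 FPKM in mutant and 54.2 FPKM in control dermis, and 13.7 FPKM in mutant and 4.97 FPKM in control epidermis. A whole-transcript value cannot show a missing exon, so each direction rests on the labels. Both dermis libraries held an epidermal marker, Krt5, a keratin of basal keratinocytes, at 1806 FPKM in mutant and 6265 FPKM in control dermis. In those libraries the dermal collagen gene Col1a1 was listed at 0 in the mutant and at 8297 FPKM in the control, with a status that marks too much data for an estimate.

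The gamma crystallin genes share their promoter layout, and a pair of them also share a longer element. An everted repeat of such hexamers in the promoter of mouse Crygf has been described as a retinoic acid response element. The letters TGACCNNNNNNNNNNGGTCA, an everted repeat with 8 bases between hexamers, were searched on both strands in RefSeq promoters (GRCm38.p6), each covering 250 bases before to 50 after a gene's start. They occurred in Cryge and Crygf and in no other of the 10 genes, and in 12 of 27025 genes overall (0.0444%). Counted back from the start of the gene, the match began at position -201 in Cryge and -215 in Crygf. The stretches below, 86 bases each, are shown because they hold this element, in capitals.
Cryge (chr1:65051299-65051384, minus strand): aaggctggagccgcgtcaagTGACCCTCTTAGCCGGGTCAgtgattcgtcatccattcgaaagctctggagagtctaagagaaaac
Crygf (chr1:65926287-65926372, plus strand): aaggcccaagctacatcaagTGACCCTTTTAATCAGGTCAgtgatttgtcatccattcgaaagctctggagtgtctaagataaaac

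All 6 gamma promoters also held TTTGTG, a run of 6 letters that all 6 windows have in common, followed by a TATATA run nearer the start, and no longer run was common to all 6. TTTGTG occurred in 5400 of the 27025 genes, Crybb1 included, and TATATA in 6.66% of them, including 7 of the 10 genes, the 6 gamma genes and Cryaa. The stretches below, 86 bases each, show this common layout, with TTTGTG in capitals.
Cryga (chr1:65103375-65103460, minus strand): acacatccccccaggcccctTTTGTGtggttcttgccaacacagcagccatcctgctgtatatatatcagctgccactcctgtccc
Crygb (chr1:65082293-65082378, minus strand): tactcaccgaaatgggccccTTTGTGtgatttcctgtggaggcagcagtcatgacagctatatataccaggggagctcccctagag
Crygc (chr1:65073531-65073616, minus strand): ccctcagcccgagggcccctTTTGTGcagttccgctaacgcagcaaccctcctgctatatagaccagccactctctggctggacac
Crygd (chr1:65063441-65063526, minus strand): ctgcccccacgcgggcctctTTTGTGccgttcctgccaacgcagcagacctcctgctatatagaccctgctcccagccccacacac
Cryge (chr1:65051152-65051237, minus strand): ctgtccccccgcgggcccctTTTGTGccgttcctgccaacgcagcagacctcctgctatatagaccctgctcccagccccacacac
Crygf (chr1:65926434-65926519, plus strand): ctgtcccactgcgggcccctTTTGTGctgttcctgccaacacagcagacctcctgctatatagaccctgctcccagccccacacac

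The other motifs searched were scattered over the 10 promoters. TGCTGA, the core of a binding site of the Maf factors that act in lens fibre cells, was found in Cryaa, Cryba1, Cryba2, Crybb1, Cryga and Crygc, against 21.7% of all genes. AACAAT, the core bound by Sox factors, was found in Crybb1 and Crygd, against 12.2% of all genes. The single hexamer AGGTCA was found in Cryga and in Crygf, where 1 of its 2 matches overlaps the everted repeat, against 18.1% of all genes. The direct repeats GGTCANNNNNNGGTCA and GGTCANNNGGTCA, with 5 and 2 bases between hexamers, were found in none of the 10 genes and in 0.0999% and 0.0703% of all genes. Each was searched on both strands, and a match describes letters in a window, not a bound site. Over the whole windows, the Cryge and Crygf promoters were 83.1% identical, and the 15 gamma pairs ranged down to 50.8% for Crygb and Crygc.

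**Figure D1:**
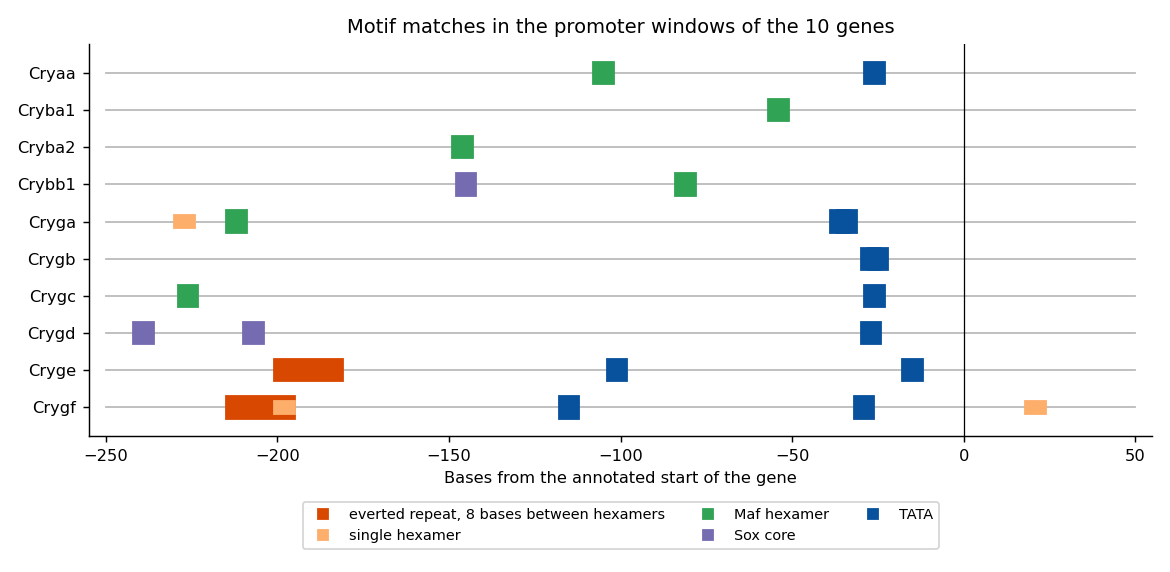
Positions of motif matches from 250 bases before to 50 bases after the annotated start of each gene (x axis, bases), 1 line per gene; boxes are matches on either strand, coloured by motif. The everted repeat appears in Cryge and Crygf alone, and a TATATA match (TATA) lies shortly before the start in Cryaa and all 6 gamma genes.

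In E16.5 skin labelled Cyp26b1-/-, all 10 crystallins were listed at 71.2 FPKM or more, while in wild-type skin none was above 3.75 FPKM. Their summed level was 2618.5 FPKM in skin labelled Cyp26b1-/- and 7.37 FPKM in wild-type skin. That sum was 0.244% of all listed FPKM in skin labelled Cyp26b1-/-, against 0.000979% in wild-type skin. The totals do not hold the same genes, since some abundant genes with too much data for an estimate are listed at 0. Krt1 and Krt10 were at 4602 and 4892 FPKM in skin labelled Cyp26b1-/- and listed at 0 in wild-type skin, so these shares are approximate. The wild-type levels of the 10 genes all lay below their range in skin labelled Cyp26b1-/-. That range runs across genes and not across libraries. The genes were chosen for their rises in this contrast, so nothing is read from the separation. All 10 were listed above 0 in wild-type skin as well, with a median of 0.345 FPKM.

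Among the alpha and beta crystallins, Cryba1 and Cryaa had the highest levels. Cryaa, the alpha A chaperone, was at 476 FPKM in skin labelled Cyp26b1-/- and 3.75 FPKM in wild-type skin, where it was the highest of the 10. Cryba1, which encodes the beta A3 and A1 proteins, was at 509 FPKM in skin labelled Cyp26b1-/- and 0.99 FPKM in wild-type skin. Crybb1, a basic beta crystallin, was at 131 FPKM in skin labelled Cyp26b1-/- and 0.63 FPKM in wild-type skin. Crybb1 was the lowest of these 3 genes in both groups. Cryba2, an acidic beta crystallin, was the lowest of the 10 in skin labelled Cyp26b1-/-, at 71.2 FPKM, against 0.27 FPKM in wild-type skin.

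Among the gamma crystallins, monomeric proteins packed into the fibre cells, Cryga and Crygb had the highest levels. Cryga was at 446 FPKM in skin labelled Cyp26b1-/- and 0.4 FPKM in wild-type skin. Crygb was at 325 FPKM in skin labelled Cyp26b1-/- and 0.42 FPKM in wild-type skin. Cryge was at 216 FPKM in skin labelled Cyp26b1-/- and 0.25 FPKM in wild-type skin. In wild-type skin the gamma genes lay close together, between 0.13 and 0.42 FPKM. Crygd was at 177 FPKM in skin labelled Cyp26b1-/- and 0.13 FPKM in wild-type skin, the lowest wild-type value of the 10. Crygf was at 145 FPKM in skin labelled Cyp26b1-/- and 0.24 FPKM in wild-type skin. Crygc was at 122 FPKM in skin labelled Cyp26b1-/- and 0.29 FPKM in wild-type skin. The 2 Crygc transcripts come from 1 locus and were listed at 91.5 and 30.5 FPKM in skin labelled Cyp26b1-/-, against 0.24 and 0.05 FPKM in wild-type skin.

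**Figure D2:**
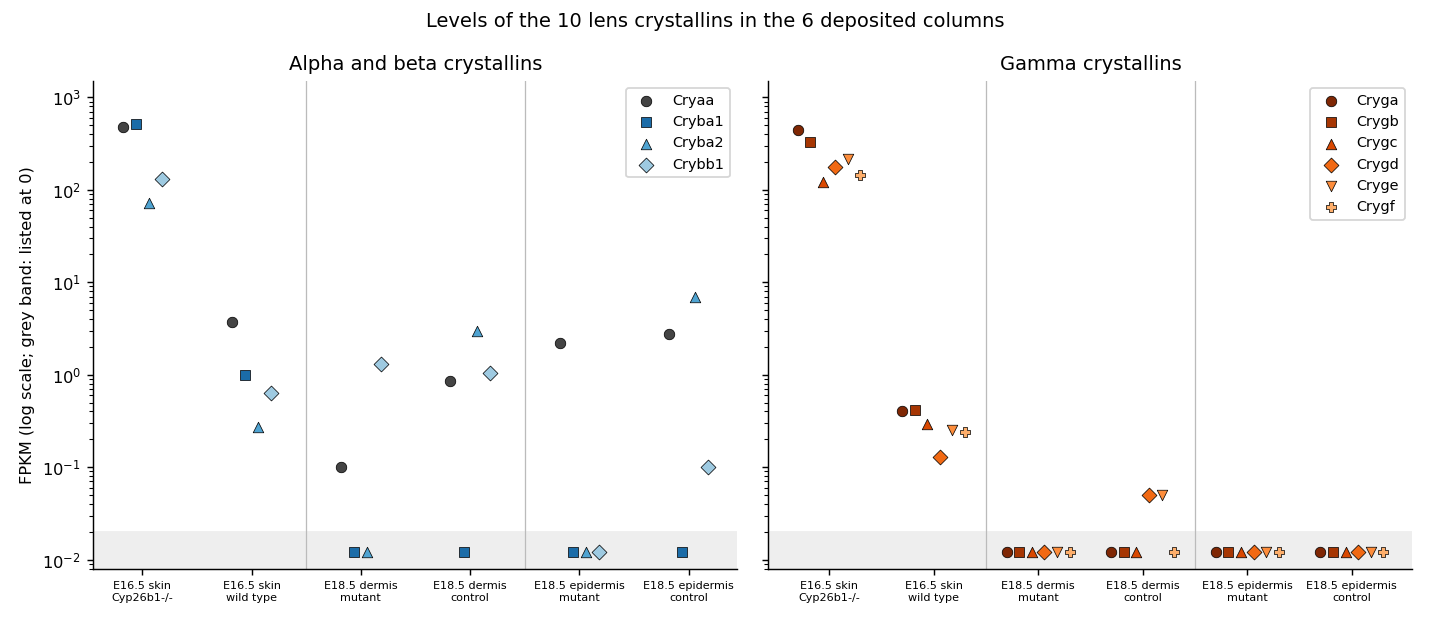
FPKM (y axis, log scale) of the 4 alpha and beta genes (left) and the 6 gamma genes (right) in each of the 6 deposited columns; E16.5 points pool 2 libraries, E18.5 points are 1 library, and points in the grey band are listed at 0. All 10 genes are above 71 FPKM in skin labelled Cyp26b1-/-, between 0.13 and 3.75 FPKM in wild-type skin, and mostly at 0 at E18.5.

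The size of the difference was taken as log2((FPKM + 1)/(FPKM + 1)), Cyp26b1-/- over wild type, which understates the change of low genes, less the value of the median gene. The median gene was at 0.43, taken over the 14154 genes that reached 1 FPKM in at least 1 group. On this scale the 10 genes ranged between 5.40 for Cryba2 and 7.89 for Cryga, with a median of 6.66. In between came Cryba1 at 7.57, Crygb at 7.41, Cryge at 7.01, Crygd at 6.87, Crygf at 6.46, Cryaa at 6.22, Crygc at 6.15 and Crybb1 at 5.91. Cryge and Crygf, the gamma genes with the everted repeat, were at 7.01 and 6.46, and the 4 without it were between 6.15 and 7.89. The genes were chosen for these folds, and the coding sequences of Cryge and Crygf are 98.1% identical. Nothing about the element is therefore read from these values, and its part was not tested. The log2 folds that the authors' deposited table gives for the 11 transcripts, which use no pseudocount, ranged between 6.99 for Cryaa and 10.4 for Crygd. The standard errors implied by the statistic in the authors' deposited table were 0.254 for Cryaa to 1.997 for 1 Crygc transcript. These come from the model of Cuffdiff, the program that made the tables, and are wider than the median of 0.169 over tested transcripts of at least 1 FPKM. The error of a wild-type level near 0.1 FPKM therefore makes the order of neighbouring folds uncertain.

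Other lens genes stood at the edge of the choice. Just inside it stood Cryba2, at 5.83 before the median gene is subtracted, and Crybb1, at 6.34. Just outside it, among protein-coding genes, stood Crybb3 at 5.60, Psors1c2 at 5.26, Cryba4 at 5.12, Crygn at 5.09 and Lim2 at 4.57. Psors1c2, named after a psoriasis susceptibility region, was at 350 FPKM in skin labelled Cyp26b1-/- and 8.13 FPKM in wild-type skin. Without the restriction to coding genes, 12 other symbols were at or above Cryba2, none of them coding for protein. The 5 highest of these were the short RNA genes AF357355 at 9.47, Mir379 at 8.33, Mir3078 at 7.40, Snord53 at 7.31 and Rnu73a at 7.27. All 5 were listed at 0 in wild-type skin, and a very short length makes an FPKM large for few fragments.

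All 10 genes were called higher at E16.5, beside 8.16% of 16303 tested genes called higher and 10.2% called lower. They had been chosen on this contrast, so nothing is read from that count. A call here means that the deposited Cuffdiff statistic, recomputed after subtracting the median deposited log2 fold of 0.478, passed 0.05 after Benjamini-Hochberg adjustment. With q in the authors' deposited table taken as it stands, 54.6% of tested genes were called higher, again including all 10.

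The rest of the lens programme gave a mixed picture, from lists written with earlier results of these data known and so not independent evidence. Here a gene that rose or fell is one called higher or lower, beside 8.16% of all tested genes called higher and 10.2% called lower. Of 6 other lens crystallins, 5 rose in skin labelled Cyp26b1-/- and none fell, with a median log2 fold of 4.08. Crybb3, a basic beta crystallin, was at 148 FPKM in skin labelled Cyp26b1-/- and 2.07 FPKM in wild-type skin (log2 fold 5.17). Cryba4, an acidic beta crystallin next to Crybb1 on chromosome 5, was at 78.1 FPKM in skin labelled Cyp26b1-/- and 1.27 FPKM in wild-type skin (4.70). Both folds lay below those of all 10 genes, which the choice of the largest rises fixed beforehand. Crygn, a relative of the beta and gamma genes, was at 43.6 FPKM in skin labelled Cyp26b1-/- and 0.31 FPKM in wild-type skin (4.66). Crygs, a gamma crystallin outside the cluster, was at 15.2 FPKM in skin labelled Cyp26b1-/- and 0.06 FPKM in wild-type skin (3.51). Crybb2, an abundant crystallin of the postnatal lens, reached 0.71 FPKM in skin labelled Cyp26b1-/- and was listed at 0 in wild-type skin. Its call is therefore the authors' own. Cryab, the alpha B chaperone that many tissues express, did not pass the test, with 83.6 FPKM in skin labelled Cyp26b1-/- and 57.8 FPKM in wild-type skin (0.10). Of 4 enzymes that carry a crystallin name but belong to other families, Cryl1 rose, with 65.7 FPKM in skin labelled Cyp26b1-/- and 29 FPKM in wild-type skin, and Crym, Cryz and Cryzl1 did not pass.

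Of 13 genes of lens fibre membranes and cytoskeleton, 7 rose and none fell, beside 8.16% of all tested genes called higher and 10.2% called lower. Their median log2 fold was 0.36. Lim2, a fibre membrane protein, was at 23.7 FPKM in skin labelled Cyp26b1-/- and 0.04 FPKM in wild-type skin (log2 fold 4.14). Mip, the fibre water channel, was at 15.1 FPKM in skin labelled Cyp26b1-/- and 0.28 FPKM in wild-type skin (3.23). The filament genes Bfsp1 and Bfsp2 rose by 2.17 and 1.53 on the log2 scale. Grifin and Lgsn, both listed at 0 in wild-type skin, were called as well. Their calls are the authors' own, and by the authors' q 54.6% of tested genes were called higher. Lgsn reached only 0.22 FPKM in skin labelled Cyp26b1-/-, and its log2 fold with the pseudocount was -0.14. Gja3, Lctl, Birc7, Dnase2b, Tdrd7 and Lenep did not pass the test.

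Of 9 lens transcription factors, Pax6, Six3 and Sox1 rose and Maf fell, beside 8.16% of all tested genes called higher and 10.2% called lower. Their median log2 fold was -0.08, the value of Sox1 itself. Sox1 was at 0.37 FPKM in skin labelled Cyp26b1-/- and 0.08 FPKM in wild-type skin. At such levels the pseudocount hides the change, and the call rests on the deposited statistic. Pax6, an early regulator of eye development, was at 6.82 FPKM in skin labelled Cyp26b1-/- and 0.77 FPKM in wild-type skin. Maf, which activates crystallin genes in fibre cells and is also expressed in skin, was at 24.7 FPKM in skin labelled Cyp26b1-/- and 25.1 FPKM in wild-type skin, a log2 fold of -0.45 once the median gene is subtracted. Prox1, Sox2, Pitx3, Foxe3 and Hsf4 did not pass.

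**Figure D3:**
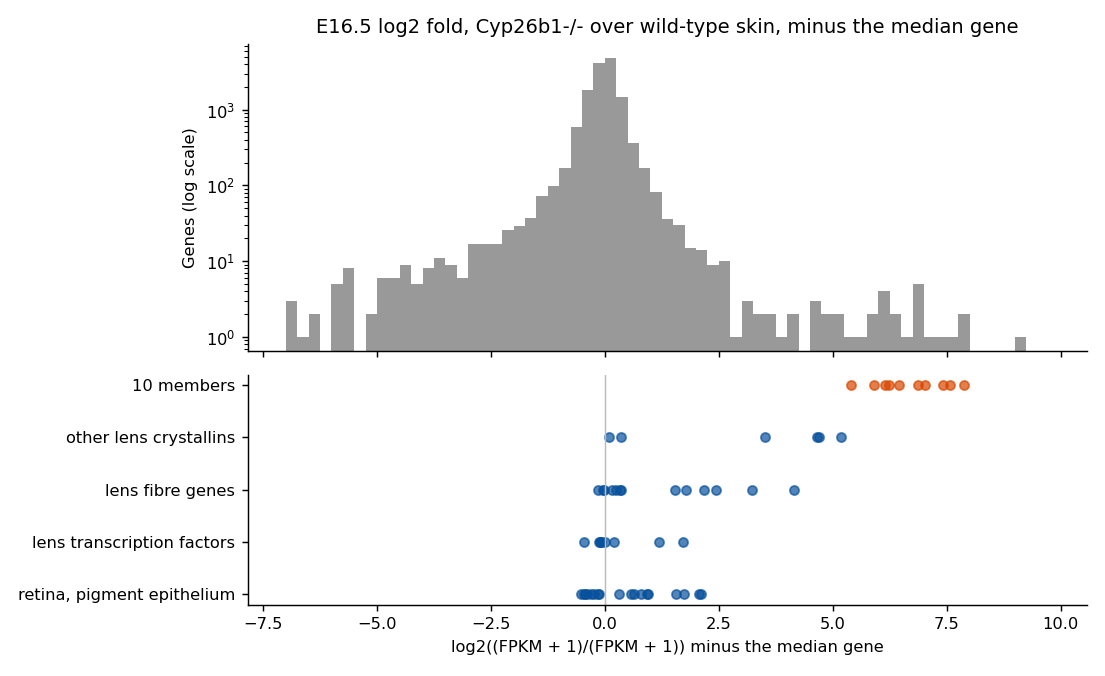
Top, number of genes (y axis, log scale) by E16.5 log2 fold, Cyp26b1-/- over wild-type skin, minus the median gene (x axis), for genes that reach 1 FPKM; bottom, the same fold for each gene of 5 lists, 1 point per gene. The 10 genes, chosen for these folds, lie between 5.40 and 7.89. The other lens crystallins and fibre genes spread from below there to just under 0, with Lgsn lowest at -0.14.

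Markers of other tissues near the eye moved in the same libraries, and their part in the crystallin levels was not tested. Beside each count below stand 8.16% of all tested genes called higher and 10.2% called lower. Of 18 markers of retina and pigment epithelium, 13 could be tested and 9 rose with none falling, and their summed level was 32.2 FPKM in skin labelled Cyp26b1-/- and 4.38 FPKM in wild-type skin. Their highest single level was 6 FPKM in skin labelled Cyp26b1-/-, that of Trpm1, which pigment cells of the skin also express. Of 7 brain and neuron markers, 5 rose, with sums of 39.7 FPKM in skin labelled Cyp26b1-/- and 19.3 FPKM in wild-type skin. Of 7 measured cornea and conjunctiva markers, 3 rose and 1 fell, with sums of 718 FPKM in skin labelled Cyp26b1-/- and 340.0 FPKM in wild-type skin, mostly from keratins that other epithelia also express. Of 5 measured pigment genes, none rose and 1 fell, with sums of 87.9 FPKM in skin labelled Cyp26b1-/- and 75 FPKM in wild-type skin. Of 3 olfactory markers that could be tested, 1 rose, and the 1 enamel marker that could be tested fell, with summed levels of at most 5.23 FPKM for either list in either group. Whether lens or other eye tissue was present in the libraries labelled Cyp26b1-/- was not tested.

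The 10 genes did not rise in the same proportion, so the make-up of their summed FPKM differed between the E16.5 groups. The 6 gamma genes made up 54.6% of the sum in skin labelled Cyp26b1-/- and 23.5% in wild-type skin. Cryaa made up 18.2% in skin labelled Cyp26b1-/- and 50.9% in wild-type skin. Cryba1 took 19.4% in skin labelled Cyp26b1-/- and 13.4% in wild-type skin. The gamma sum was 3.003 times the Cryaa level in skin labelled Cyp26b1-/-, and 0.461 times in wild-type skin. The shares have no replicate error, and the wild-type shares rest on a sum of 7.37 FPKM.

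**Figure D4:**
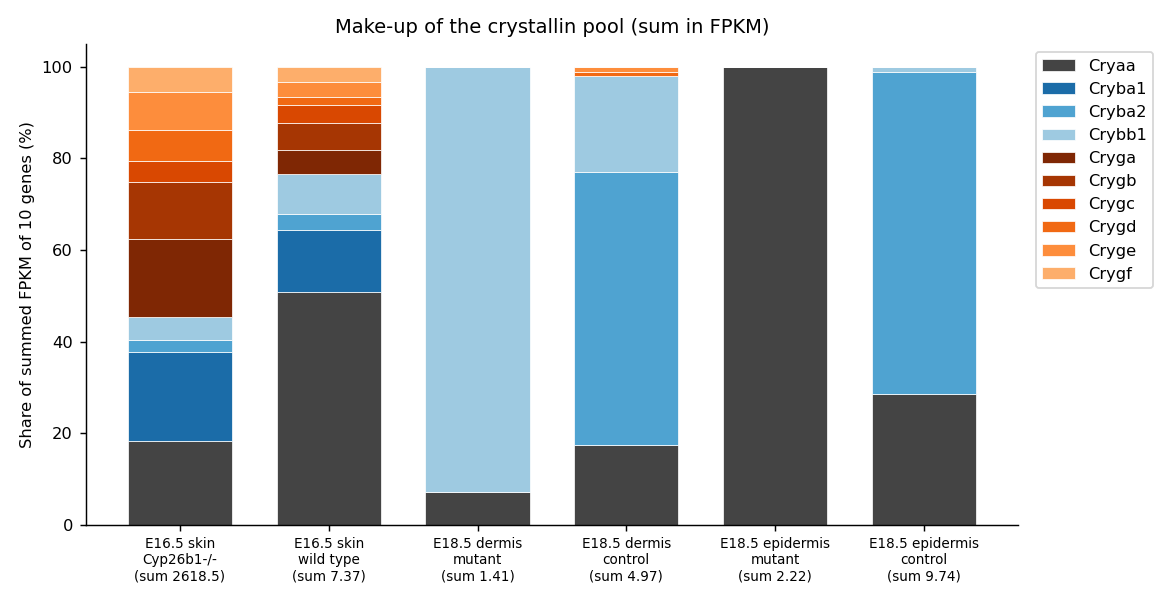
Share of each gene in the summed FPKM of the 10 genes (y axis, percent) in each column, with the sum in FPKM under each bar. Gamma genes fill 54.6% of the bar of skin labelled Cyp26b1-/- and 23.5% of the wild-type bar, and the E18.5 bars, whose sums are below 10 FPKM, hold mainly Cryba2, Crybb1 or Cryaa.

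At E18.5 little crystallin signal was present, and what there was came from Cryaa, Cryba2 and Crybb1. Of the 10 genes, 2 were above 0 in mutant and 5 in control dermis, and 1 was above 0 in mutant and 3 in control epidermis. The summed level was 1.41 FPKM in mutant and 4.97 FPKM in control dermis, and 2.22 FPKM in mutant and 9.74 FPKM in control epidermis. With 1 library per group, these values were not tested here, and the statistics the authors deposited for E18.5, made without replicates, were not used. Both sums were lower in the mutant library than in its control, unlike at E16.5. Cryba2, listed at 0 in both mutant libraries, made up 59.8% of the control sum in dermis and 70.5% in epidermis. Tissue markers differed in the same libraries. Col1a1, a collagen gene of dermal fibroblasts, was at 27.7 FPKM in mutant and 149 FPKM in control epidermis, and the 5 dermal markers summed to 60.4 FPKM in mutant and 320.0 FPKM in control epidermis. Krt5 was at 704 FPKM in mutant and 2634 FPKM in control epidermis, and was also lower in mutant than in control dermis, as given above. Krt14 was lower as well, at 322 FPKM in mutant and 1496 FPKM in control epidermis. Other markers went the other way. Ivl, also of the epidermis list, was at 709 FPKM in mutant and 334 FPKM in control epidermis. In dermis, the dermal genes Dcn and Lum were at 358 and 60.6 FPKM in mutant, and 53.8 and 38.8 FPKM in control. The part of these differences in the crystallin values was not tested.

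The gamma genes and Cryba1 were at or next to 0 in all 4 libraries. Cryba1 was listed at 0 in each of them. Among the gamma genes, Crygd and Cryge were each at 0.05 FPKM in control dermis, and all other gamma values were listed at 0. The tables give no counts, but low values of other genes with transcripts of 900 to 960 bases give an approximate FPKM for 1 fragment. By that step, 0.05 FPKM equals about 0.549 of a fragment for Crygd and 0.565 for Cryge. The coding sequences of Crygd and Cryge are 91.6% identical and share a run of 153 bases, so 1 fragment divided between them cannot be told apart from a trace of either.

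Cryba2 had the clearest E18.5 signal and was in the control libraries alone. It was listed at 0 in mutant dermis and at 2.97 FPKM in control dermis, and at 0 in mutant epidermis and 6.87 FPKM in control epidermis. By the step, the control values correspond to about 38.3 fragments in dermis and 106 in epidermis, while 1 fragment would have given about 0.039 FPKM in either mutant library. Of 10431 genes with at least 1 FPKM in both control libraries, 6 were listed at 0 in both mutant libraries. Beside Cryba2 these were Gm10229, Krtap22-2, Krtap4-8, Mir692-1 and Snora33, which include keratin-associated and short RNA genes and were named after their values were seen. The opposite pattern, at least 1 FPKM in both mutant libraries and 0 in both controls, held for 10 of 9462 genes. The rule of the first count repeats the pattern of Cryba2, which meets it through the control libraries where it is high. Nothing is therefore read from these counts. At E16.5 Cryba2 went the other way, with 71.2 FPKM in skin labelled Cyp26b1-/- and 0.27 FPKM in wild-type skin.

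Cryaa and Crybb1 showed no common direction at E18.5. Cryaa was at 0.1 FPKM in mutant and 0.86 FPKM in control dermis, or about 4.25 and 18.3 fragments. In epidermis Cryaa was at 2.22 FPKM in mutant and 2.77 FPKM in control, or about 94.4 and 70.6 fragments. Those 2 fragment numbers run against the FPKM because the step differs between the libraries. Crybb1 was at 1.31 FPKM in mutant and 1.04 FPKM in control dermis, and was listed at 0 in mutant and at 0.1 FPKM in control epidermis.

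Few of the 10 genes reached the level at which a 2-fold difference was counted, which is 1 FPKM in either library. In dermis, Cryba2 was at least 2-fold lower in the mutant among the 2 genes that reached it, beside 13.9% of 13398 genes lower and 14.0% higher. In epidermis, Cryba2 was again at least 2-fold lower among the 2 genes that reached it, beside 4.86% of 11362 genes lower and 3.49% higher. Cryba2 reached the level through the control library alone, so it had to come out lower. The folds are relative to the median gene, at 0.12 in dermis and -0.18 in epidermis on the log2 scale.

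Of the other lens crystallins, Cryba4, Crybb3 and Cryab reached 1 FPKM in at least 1 of the E18.5 libraries. Cryba4 was at 2.38 FPKM in mutant and 9.2 FPKM in control dermis, and at 0.18 FPKM in mutant and 0.44 FPKM in control epidermis. Crybb3 was at 3.87 FPKM in mutant and 8.22 FPKM in control dermis, and at 1.5 FPKM in mutant and 1.93 FPKM in control epidermis. Crygn stayed below 1 FPKM in all 4 libraries, and Crygs and Crybb2 were listed at 0 in all 4. Summed per gene, Cryba4, Crybb3 and Crygn were lower in mutant than in control libraries of both tissues. Relative to the median gene, their log2 folds in epidermis were small, at -0.109, -0.0507 and 0.0056. Cryab was higher in mutant dermis, with 74.5 FPKM in mutant and 20.4 FPKM in control, and lower in mutant epidermis, with 0.57 FPKM in mutant and 1.44 FPKM in control. Of the 10 genes, Cryaa and Cryba2 were lower in the mutant in both tissues, while Crybb1 was higher in mutant dermis, at 1.31 FPKM against 1.04 FPKM. Single Crybb3 transcripts were not all lower. In dermis 1 was at 1.34 FPKM in mutant and 0 in control, and the other at 2.53 and 8.22 FPKM. In epidermis the first was at 1.1 FPKM in mutant and 1.93 FPKM in control, and the other at 0.4 FPKM and 0. The fibre gene Lim2 was listed at 0 in all 4 libraries, and Mip reached at most 0.09 FPKM.

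**Figure D5:**
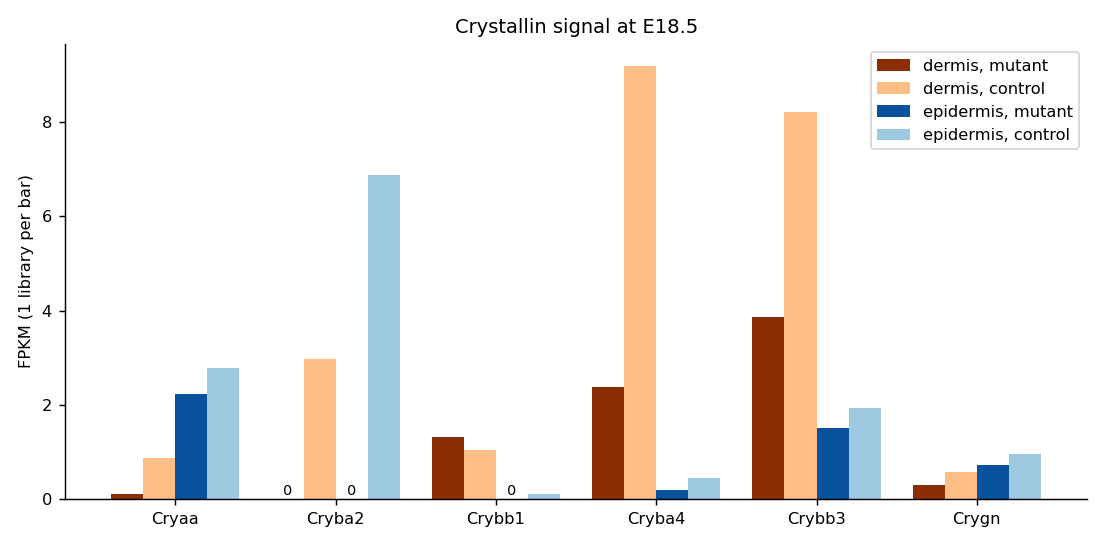
FPKM (y axis, linear, 1 library per bar) of the 3 genes with more than a trace of signal at E18.5 and of 3 other lens crystallins, in mutant and control dermis and in mutant and control epidermis; 0 marks a value listed at 0. Cryba2 is present in both controls (2.97 and 6.87 FPKM) and at 0 in both mutants, and the tallest bars shown are Cryba4 and Crybb3 in control dermis. Cryab, which was higher than any gene shown in dermis (74.5 FPKM in mutant, 20.4 FPKM in control), is left out.

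Profiles over the 6 columns were set beside the median profile of the 10 genes, which the 6 gamma genes and the E16.5 values largely fix. The likeness of a gene was taken as the Euclidean distance of its log2(FPKM + 1) values over the 6 columns to that median profile. The distance was 0.181 for Cryge, 0.290 for Crygd, 0.442 for Crygf, 0.681 for Crygc, 0.734 for Crygb and 1.19 for Cryga. It was 1.49 for Cryba1, 1.69 for Crybb1, 3.497 for Cryaa and 3.84 for Cryba2. Since the gamma genes fix the median, their short distances are a description and no sign that they resemble each other more than the others do. Among 21369 genes that are not named as crystallins, the 8 nearest were short RNA genes listed at 0 in the other 5 columns, led by Mir3078 at 0.481 and Rnu73a at 0.549. The others were Mir679, Mir379, Mir1945, Mir181b-1, Mir196a-2 and Mir365-1. Among 17546 protein-coding genes, a restriction chosen after those names were seen, the nearest was Lim2 at 3.01. It was followed by Stra6 at 3.05, Snx31 at 3.12, Rarb at 3.39, Bglap2 at 3.44, Vnn1 at 3.503, Bglap at 3.51 and Gpa33 at 3.56. Stra6, the receptor for retinol-binding protein, was at 44.8 FPKM in skin labelled Cyp26b1-/- and 1.47 FPKM in wild-type skin. Rarb, a retinoic acid receptor and known target of retinoic acid, was at 32 FPKM in skin labelled Cyp26b1-/- and 2.98 FPKM in wild-type skin.

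Near-identical copies and overlapping genes limit how the reads can be divided among the 10 genes. The coding sequences of the 15 gamma pairs are between 79.2% identical for Crygc and Crygf and 98.1% for Cryge and Crygf, with shared runs of 32 to 221 bases. The other 30 pairs are between 41.7% and 57.1% identical, with runs of at most 15 bases. The gamma sum is therefore firmer than the level of any 1 gamma gene. By GENCODE (mm9), Cryga to Cryge lie on chromosome 1, minus strand, between 65095128 and 65149947, and Crygf lies apart on the plus strand from 65973096 to 65974881. Cryga shares 350 exonic bases with D630023F18Rik on the same strand, which was at 0.1 FPKM in skin labelled Cyp26b1-/- and 0.15 FPKM in wild-type skin. Cryba1, on chromosome 11, minus strand, from 77532117 to 77538785, overlaps Nufip2 on the opposite strand with no exonic base in common. Cryaa lies on the plus strand of chromosome 17 from 31814878 to 31818667, Cryba2 on chromosome 1, minus strand, from 74936508 to 74939717, and Crybb1 on the plus strand of chromosome 5 from 112684835 to 112698605, none overlapping another gene.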

How the data were processed

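FPKM per RefSeq transcript were deposited by the authors, to 2 decimals, with 1 control and 1 mutant column in each of 3 tables, per the file headers. The submitters' processing notes name TopHat 1.3.2, Bowtie 0.12.7.0, Cufflinks, Cuffdiff 1.3.0 and mm9; the strand setting and the gene model were not given in the sources used here. Log2 folds and test statistics deposited by the authors were read as scores, and their deposited p-values and q-values as they stand. Rows with a failed or out-of-range status were left out of folds.

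FPKM were summed per gene symbol. Folds used a pseudocount of 1, and medians, counts and the 2-fold limit used genes of at least 1 FPKM in either group. For E16.5, the deposited statistic was recomputed after subtracting the median fold, adjusted by Benjamini-Hochberg across the tested transcripts and called at 0.05. Where 1 group was at 0, the authors' own call was used. A gene was called when its transcripts were called 1 way only. The recomputation was tested on simulated data. E18.5 had 1 library per group, so no test was run and the authors' deposited E18.5 statistics were not used. Read depth is not in the files. The 10 genes, the lists and the tests were chosen with earlier results of these data known. Named were the 10 genes, list genes, the 8 nearest profiles, the 5 next largest rises and Cyp26b1. Not every list gene is reported by name here. Alternatives were other pseudocounts, centring, filters and the authors' q; those on coding genes and fragment steps were chosen after seeing the data. The fragment step is the commonest value below 0.3 FPKM among 748 single-transcript genes of 900 to 960 bases, taken by 6 to 60 of them in the E18.5 libraries. Python 3.11.15, pandas 2.3.3, numpy 2.4.6, scipy 1.17.1, Biopython 1.88 and matplotlib 3.10.9 were used.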

Additional observations from a re-analysis of the deposited data

Results flagged for a closer look

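Cryab, the alpha B crystallin, moved in opposite directions in the 2 tissues at E18.5. Relative to the median gene, its log2 fold, mutant over control, was 1.69 in dermis (74.5 FPKM in mutant, 20.4 FPKM in control) and -0.46 in epidermis (0.57 FPKM in mutant, 1.44 FPKM in control). The dermis fold less the epidermis fold was 2.15. With 1 library per group this difference was not tested.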

How the results depend on the processing

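At E16.5 the median log2 fold of the 10 genes was 6.66, and 8.33 with a pseudocount of 0.1, 7.09 without subtracting the median gene and 6.77 without a filter on low genes. At E18.5 the median covers only the genes above 0 in either library, most of them above 0 in the control alone, so its sign is built in and nothing is read from it. It was -0.19 in dermis, the value of Crygd and Cryge, and -0.05 in epidermis. Over all 10 genes, most of them at 0 in both libraries, it was -0.12 in dermis and 0.18 in epidermis, the median gene's shift turned round. Over the genes above 0 in either library, the dermis and epidermis medians were -0.73 and -0.80 with a pseudocount of 0.1. For the same genes they were -0.070 and -0.23 without subtracting the median gene, and -0.13 and -0.10 without a filter. Single-gene E16.5 folds kept their direction in 20 of 20 recomputed values. At a minimum of 1 FPKM, the number of the 10 genes with signal was 1 in wild-type skin, 1 in mutant dermis, 2 in control dermis and 2 in control epidermis, and at 0.1 FPKM it was 3 in control dermis. At E16.5, 1538 transcripts were called higher and 1864 lower, against 9932 higher and 772 lower by q in the authors' deposited table. Lens fibre genes called higher numbered 7, and 12 by the authors' q. No paired analysis was possible because the deposited E16.5 columns pool the 2 libraries of each group, and for the same reason no library could be left out. The 2-decimal FPKM and unknown depth limit all values near 0.1 FPKM.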
